A study of Mus musculus with 27 samples.

Results

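The 10 transcripts described here encode the BCL2 family, the proteins that decide whether the outer membrane of the mitochondrion stays closed or is opened to start cell death. *Bcl2*, *Bcl2l1*, *Mcl1*, *Bax*, *Bak1*, *Bad*, *Bid*, *Bcl2l11*, *Bbc3* and *Pmaip1* were taken by gene symbol, and all 10 were found in each of 5 RNA-Seq tables that share 14558 gene symbols. Prosurvival members (*Bcl2*, *Bcl2l1* encoding BCL-XL, and *Mcl1*) bind and hold back the effectors BAX and BAK, which form the pore that releases cytochrome c. BH3-only members (*Bad*, *Bid*, *Bcl2l11* encoding BIM, *Bbc3* encoding PUMA, and *Pmaip1* encoding NOXA) neutralise the prosurvival proteins, and BIM, PUMA and the cleaved form of BID can also activate BAX and BAK directly. In red cell precursors, erythropoietin signalling through STAT5 and the factor GATA1 are known to sustain BCL-XL, which protects late erythroblasts, while BIM is a principal death signal when survival cytokines are withdrawn.

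The cells were MEL cells, a mouse erythroleukaemia line arrested at an early erythroid stage that can be induced to differentiate. The study depleted regulators of erythroid genes by RNA interference. The corepressor ETO2 (gene *Cbfa2t3*) was depleted with a hairpin, sh2 (2 libraries) or sh3 (2 libraries), and compared with 2 control libraries labelled Eto2 WT. Its partner IRF2BP2 was depleted with hairpin sh1 (2 libraries against 2 labelled Irf2bp2 WT), and the histone demethylase LSD1 (gene *Kdm1a*) in 2 libraries against 1 labelled Lsd1 WT. These cells carried lentiviral shRNAs, a non-targeting one in the controls, so the label WT means an unchanged target and not untouched cells. The repressor GFI1B was targeted by transfected siRNAs (2 libraries labelled Gfi1b KD, 2 labelled Gfi1b WT that received a non-targeting siRNA), and the labels do not say which siRNA a library received. A separate table held 2 induced and 2 non-induced MEL libraries without a knockdown (KD), and the labels name neither the inducing agent nor its duration. The study's methods call the replicates independent biological samples.

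Total counts were 44519414 to 57684583 in the 13 shRNA libraries and 9929311 to 19623105 in the 8 *Gfi1b* and MEL libraries, and no member had fewer than 79 counts in any library. *Cbfa2t3* transcripts were lower in all 4 Eto2 KD libraries, *Kdm1a* fell from 151.6 to 16.9 and 16.3 CPM (counts scaled to library size), and *Irf2bp2* itself was only modestly lower after its KD, at 92.2 and 94.9 CPM against 116.0 and 119.7 CPM. *Gfi1b* went against the label in 1 library. It stood at 122.3 and 145.0 CPM in the controls, at 76.5 CPM in the library labelled Gfi1b KD replicate 2 and at 215.8 CPM in the library labelled Gfi1b KD replicate 1. That last library also resembled induced cells, with r = 0.65 between its log2 change and the mean change of the induced libraries over 11053 genes, against r = -0.07 for replicate 2. Erythroid markers were present in every library (summed 1210 to 5040 CPM for 12 listed genes, although the globin genes *Hba-a1* and *Hbb-b1* were at or under 1.8 CPM or not listed), and myeloid markers summed to at most 20.3 CPM, with *Mpo*, *Elane* and *Csf1r* at or under 0.403 CPM. Lymphoid markers summed to 2.34 to 49.9 CPM.

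Compared per transcript length, in the RPKM values deposited with the counts, *Mcl1* was the most abundant member in the 9 control and non-induced libraries, with a median of 180.3 RPKM (166.0 to 192.9). The effectors followed, *Bax* at 93.2 RPKM (42.6 to 120.2) and *Bak1* at 54.4 RPKM (30.1 to 57.7), and then *Bcl2* at 31.9 RPKM (27.3 to 34.8) and *Bid* at 26.1 RPKM (20.5 to 30.7). *Bad* reached 13.6 RPKM (7.40 to 15.5), *Bcl2l1* 9.40 RPKM (8.27 to 11.97), *Pmaip1* 7.31 RPKM (5.25 to 18.2), *Bbc3* 5.07 RPKM (2.82 to 9.16) and *Bcl2l11* 4.53 RPKM (3.68 to 6.74). In this order *Mcl1* stood clear of *Bax* and *Bid* stood clear of *Bad*, and the ranges of all other neighbours overlapped. Part of the spread separated the tables: *Bax* was 93.2 RPKM or higher in the 5 shRNA controls and 73.6 RPKM or lower in the 4 other controls, and *Pmaip1* was lower in the former (5.25 to 7.31 RPKM) than in the latter (10.8 to 18.2 RPKM). KD and control libraries were therefore compared only within a table.

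**Figure D1:**
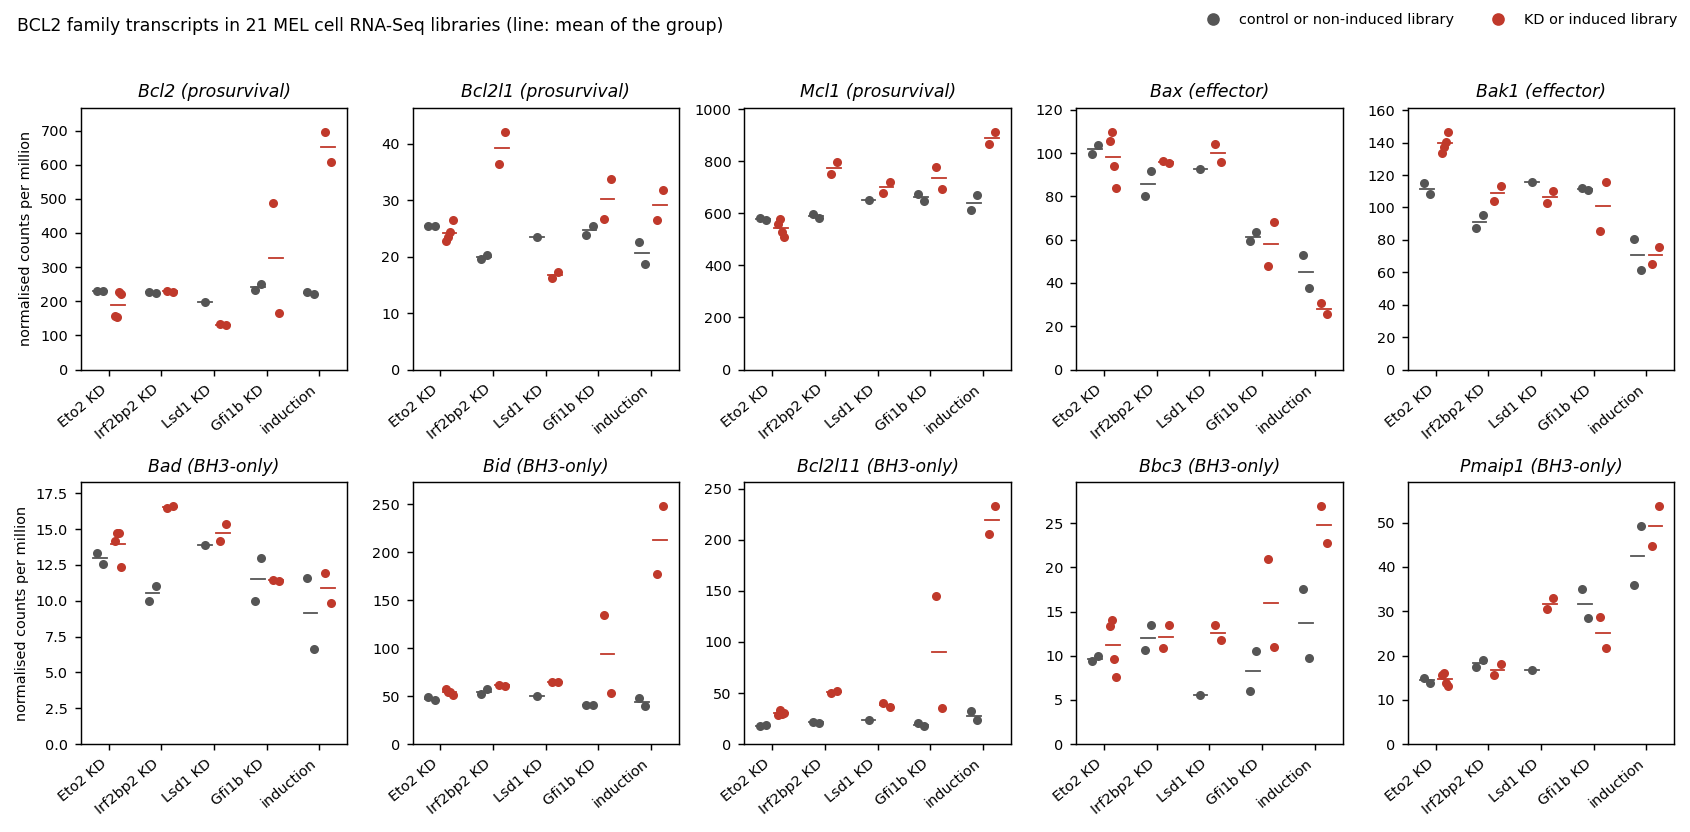
Normalised counts (CPM, y axis, from 0, a scale per gene) of the 10 BCL2 family transcripts in 21 libraries, grouped by comparison on the x axis. Points are libraries, grey for control or non-induced and red for KD or induced, and lines are group means. Bcl2l11 is higher in every KD or induced library than in the controls of its table, and Bcl2 rises on induction to 609.2 and 696.8 CPM.

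Sites bound by ETO2 and IRF2BP2 in uninduced MEL cells were deposited as 1 list of 13229 sites in mm9 (NCBI37), of which 1760 were ETO2-only, 2730 shared and 8739 IRF2BP2-only. The list gives class codes, which were matched to these names by their sizes, and each site's fold of ChIP reads over IgG reads without saying which antibody gave it. All 10 members had a site centre within 20 kb of their start site, as did 31.6% of 22380 protein-coding genes and 50.8% of the 9958 of them that were expressed in all 5 tables. An ETO2 site lay in this window for 6 members (*Bcl2*, *Bcl2l1*, *Mcl1*, *Bak1*, *Bid* and *Bbc3*), against 11.9% of protein-coding genes and 18.1% of expressed ones, and an IRF2BP2 site for 9 members, against 29.3% and 47.9%. These shares are descriptions, since IRF2BP2 had 1 ChIP library, the ETO2 ChIP was not analysed here, some listed sites abut each other, and 9 of the 33 sites in the windows lie closer to the start site of another gene.

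Among shared sites out to 50 kb from a start, those with the highest folds lay at *Bcl2l11* and *Bcl2l1*, and the strongest of each lay beyond 20 kb. *Bcl2l11* (chr2:127951774-127988283, plus strand) had a shared site of 90.5-fold with its centre 41172 bases upstream of the start, inside the neighbouring gene *Acoxl*, and an ETO2-only site of 7-fold 41213 bases downstream of the start. Only 1 weak IRF2BP2-only site (2.71-fold) lay at the *Bcl2l11* start itself. *Bcl2l1* (chr2:152593052-152657464, minus strand) had shared sites of 27.8-fold and 19.5-fold in its intron, 42453 and 13949 bases from the start. *Bid* (chr6:120841948-120866871, minus strand) had an intronic ETO2-only site of 19.5-fold 2154 bases from the start, and *Bcl2* (chr1:108434755-108610851, minus strand) an intronic ETO2-only site of 4-fold 3846 bases from the start. *Bak1* carried an ETO2-only site (7.33-fold) 21 bases upstream of its start and an IRF2BP2-only site (22-fold) in its intron, both also inside the overlapping gene Ggnbp1. *Bid* also had 2 shared sites (18.6-fold and 7.2-fold) 40004 and 39638 bases upstream. Within 20 kb of the start, *Pmaip1* had a lone IRF2BP2-only site (22-fold) 19757 bases downstream, *Bad* a lone IRF2BP2-only site (fold 10.0) in an exon, and *Bax* 3 IRF2BP2-only sites, 2 of them inside the neighbouring gene Dhdh, with 2 and 3 further IRF2BP2-only sites of *Bad* and *Bax* between 20 and 50 kb. *Mcl1* was the most densely covered within 20 kb, with 1 shared and 11 IRF2BP2-only sites, the shared one (9.88-fold) in an exon.

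The windows reaching 100 bases to each side of 6 of these centres are printed from the mm9 genome (plus strand). They hold no exon and lie at members that were called in the comparisons, and all 6 hold the GATA letters given below. Other windows that hold no exon at called members, some without the GATA letters, are not printed. Capitals mark the GATA letters AGATAA or TGATAA on either strand (TTATCT or TTATCA when read on the opposite one), and CTG where it stands 6 to 8 bases before them (CAG after them on the opposite strand), the composite arrangement associated with the LDB1 complex to which ETO2 belongs.
Bcl2l11 upstream, shared, chr2:127910502-127910702: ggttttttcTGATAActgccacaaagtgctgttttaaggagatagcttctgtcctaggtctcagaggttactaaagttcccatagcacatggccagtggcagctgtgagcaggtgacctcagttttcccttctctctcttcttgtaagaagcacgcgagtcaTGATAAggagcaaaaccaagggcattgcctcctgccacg
Bcl2l11 downstream, ETO2-only, chr2:127992887-127993087: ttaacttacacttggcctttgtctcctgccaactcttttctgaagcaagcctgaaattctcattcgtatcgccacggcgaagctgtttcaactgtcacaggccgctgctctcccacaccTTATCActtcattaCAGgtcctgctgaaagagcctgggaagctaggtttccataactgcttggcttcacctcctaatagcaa
Bcl2l1 intron, shared, chr2:152614911-152615111: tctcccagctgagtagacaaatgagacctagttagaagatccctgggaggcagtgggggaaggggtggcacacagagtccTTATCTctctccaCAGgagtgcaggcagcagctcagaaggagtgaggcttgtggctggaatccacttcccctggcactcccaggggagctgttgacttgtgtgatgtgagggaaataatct
Bcl2l1 intron, shared, chr2:152643415-152643615: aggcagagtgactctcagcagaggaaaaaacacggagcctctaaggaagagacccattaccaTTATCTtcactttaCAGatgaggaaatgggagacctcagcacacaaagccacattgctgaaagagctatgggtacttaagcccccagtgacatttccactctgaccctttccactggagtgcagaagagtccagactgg
Bid intron, ETO2-only, chr6:120864617-120864817: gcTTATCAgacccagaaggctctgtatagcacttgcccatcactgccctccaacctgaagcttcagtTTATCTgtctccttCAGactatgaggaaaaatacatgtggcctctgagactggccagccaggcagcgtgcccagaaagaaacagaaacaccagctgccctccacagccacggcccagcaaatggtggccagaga
Bcl2 intron, ETO2-only, chr1:108606905-108607105: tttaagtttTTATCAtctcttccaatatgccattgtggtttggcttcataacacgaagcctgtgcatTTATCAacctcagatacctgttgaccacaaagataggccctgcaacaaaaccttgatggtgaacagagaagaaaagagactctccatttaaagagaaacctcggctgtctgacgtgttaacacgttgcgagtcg

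The 6 printed windows were picked and say nothing of how often the letters occur. The windows of 53 sites within 50 kb of a member's start were searched, all but that of the *Pmaip1* site, whose sequence was not used here. The GATA letters stand in 9 of 12 shared, 4 of 5 ETO2-only and 9 of 36 IRF2BP2-only windows, and the composite arrangement in 2, 2 and 1 of them. Over all listed sites the GATA letters occur in 80.3% of shared windows, in 77.1% of windows with ETO2 alone and in 34.1% of windows with IRF2BP2 alone, and the composite arrangement in 26.0%, 25.9% and 4.58%. The STAT-type letters TTCNNNGAA occur in 9.47% of all windows and in 5 of the 53 member windows, 1 of them a shared intronic site of *Bcl2l1* (14.4-fold) next to a printed one. In RefSeq promoters (GRCm38.p6, 300 bases), 1 of 15 windows of 9 members held the GATA letters (a *Bcl2l1* promoter) against 18.6% of 32851 promoters, and none held TTCNNNGAA, which 8.3% of all promoters hold. A match is only a match of letters.

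**Figure D2:**
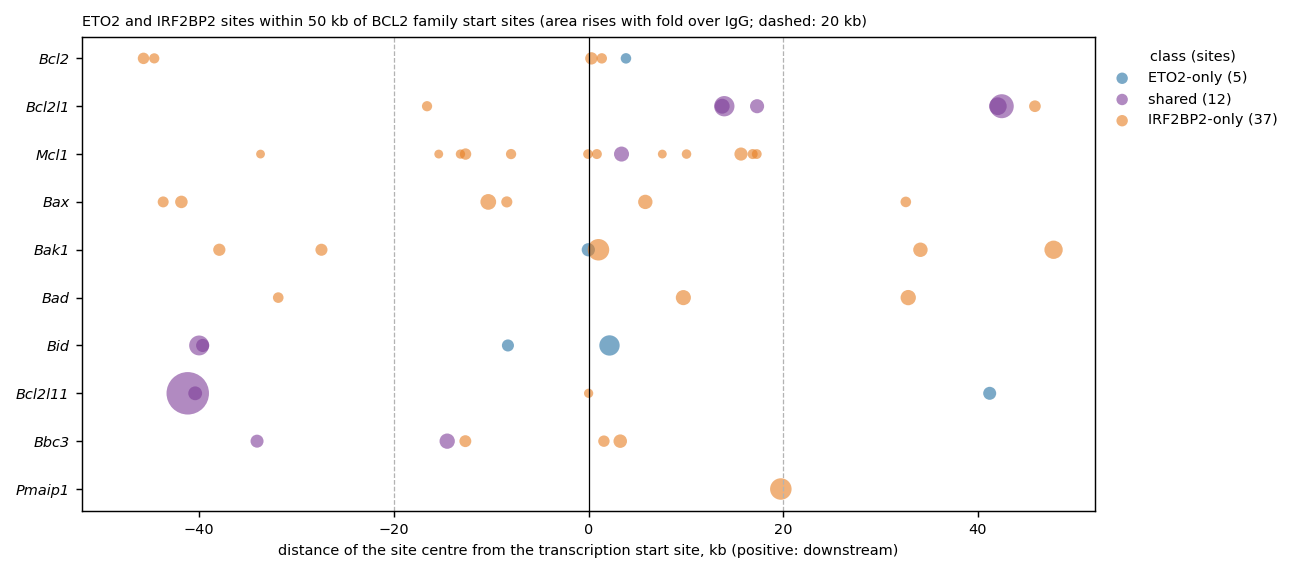
Distance of ETO2 and IRF2BP2 site centres from the start site of each member (x axis, kb, positive downstream of the start), one row per gene. Colour is the class, the area rises with the fold over IgG, and dashed lines mark 20 kb. The largest circle is the 90.5-fold shared site upstream of Bcl2l11.

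The first question was which survival and death genes respond when ETO2 is depleted. Of the 10 members, only *Bcl2l11* rose past both limits, an adjusted p of 0.05 and a log2 fold change (FC) of 0.5, beside 5.74% of all 12537 genes tested (2.99% higher and 2.75% lower). *Bcl2l11* was at 17.6 and 18.5 CPM in the controls, 28.5 and 33.2 CPM with sh2 and 29.5 and 30.4 CPM with sh3. Every KD library was above both controls, and the hairpins did not separate (difference of sh3 from sh2 -0.05, SE 0.08, adjusted p = 0.78 by edgeR). The log2 FC was 0.75 (SE 0.09, adjusted p = 9.8e-04), 1.68-fold. *Bak1* was at 114.8 and 108.2 CPM in the controls and between 133.7 and 146.8 CPM in the KD libraries. Its log2 FC of 0.32 (SE 0.06, adjusted p = 0.010) passed the test but not the fold limit. KD and control libraries did not overlap for 4 of 10 members, against 37.8% of all genes, a share close to that background. Erythroid markers summed to 2279 to 2732 CPM in the KD libraries against 1612 and 1620 CPM, with 7 of 11 tested called higher, and megakaryocyte markers to 484.7 to 597.0 CPM against 420.4 and 407.5 CPM, with 1 of 5 called higher, and the lymphoid marker *Ptprcap* was called lower (-0.67, adjusted p = 0.024). Their part in the rise of *Bcl2l11* was not tested.

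For *Bcl2* the 2 hairpins against the same target gave different values. The controls stood at 230.1 and 228.8 CPM. With sh2 *Bcl2* measured 155.8 and 153.3 CPM, and with sh3 it measured 227.1 and 222.0 CPM. The sh2 libraries were thus low and the sh3 libraries lay just under the controls. In the fit with a term per hairpin, sh3 exceeded sh2 by 0.54 on the log2 scale (SE 0.05, adjusted p = 1.1e-04), and *Bcl2* was 1 of 2 members to pass both limits there, beside 3.71% of all genes. *Bbc3*, encoding PUMA, was the other, in the opposite direction. Its 13.4 and 14.1 CPM with sh2 exceeded both the controls (9.42 and 9.94 CPM) and sh3 (9.66 and 7.57 CPM), a log2 difference of sh3 from sh2 of -0.68 (SE 0.11, adjusted p = 0.0032). *Bax* differed by -0.28 (SE 0.07, adjusted p = 0.018), under the fold limit. Fitted alone against the controls, sh2 called *Bcl2* (log2 FC -0.57, adjusted p = 3.3e-05), *Bbc3* (0.50, adjusted p = 0.0027) and *Bcl2l11*, while sh3 called *Bcl2l11* only. Over all genes the order was the other way, with 7.11% called by sh2 alone and 9.19% by sh3 alone. *Cbfa2t3* was lower with sh3 (123.1 and 145.3 CPM) than with sh2 (202.1 and 243.5 CPM, controls 400.3 and 427.2 CPM), so the hairpin with the lower *Bcl2* was not the one with the lower target. The part of these hairpin differences that comes from other targets of a hairpin was not tested.

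**Figure D3:**
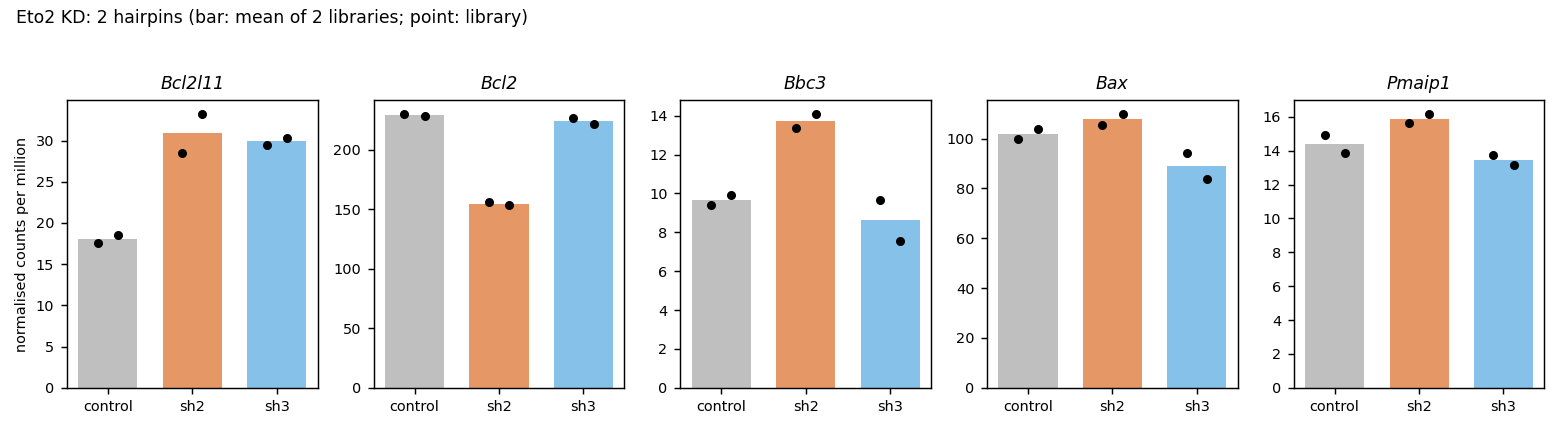
Normalised counts (CPM, y axis, from 0) of 5 transcripts in control, sh2 and sh3 libraries of the Eto2 table, with bars for the mean of 2 libraries and points for each library. Bcl2l11 is raised with both hairpins, whereas Bcl2 is low and Bbc3 high with sh2 only.

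After Irf2bp2 KD with hairpin sh1, the transcripts encoding BIM and BCL-XL rose together. No other hairpin against *Irf2bp2* was sequenced, and the part of other targets of sh1 was not tested. Of the 10 members, 3 rose past both limits and none fell, beside 22.5% of 12329 genes called (10.1% higher and 12.5% lower). *Bcl2l11* went from 22.1 and 20.7 CPM to 49.99 and 51.99 CPM, a log2 FC of 1.25 (SE 0.09, adjusted p = 8.3e-09), 2.38-fold. *Bcl2l1* went from 19.5 and 20.3 CPM to 36.4 and 42.2 CPM, a log2 FC of 0.98 (SE 0.10, adjusted p = 4.9e-07), 1.98-fold. A death gene and a survival gene of the family thus rose in the same libraries. *Bad*, whose product binds BCL-XL and BCL2, rose from 9.98 and 11.1 CPM to 16.5 and 16.6 CPM (log2 FC 0.65, SE 0.11, adjusted p = 1.3e-04). *Mcl1* was at 596.9 and 581.2 CPM in the controls and 752.0 and 795.8 CPM in the KD libraries (log2 FC 0.39, SE 0.09, adjusted p = 0.0016), and *Bak1* had a log2 FC of 0.25 (SE 0.09, adjusted p = 0.022), both under the fold limit. *Bcl2* was nearly level, at 228.1 and 224.1 CPM against 231.4 and 226.5 CPM (log2 FC 0.02, SE 0.08, adjusted p = 0.87). The 4 remaining members, *Bax*, *Bid*, *Bbc3* and *Pmaip1*, had log2 FCs between -0.11 and 0.16 and adjusted p-values of 0.125 or more. Groups did not overlap for 7 of 10 members, against 74.1% of all genes. Erythroid markers moved with this KD, summing to 3680 and 3972 CPM against 1318 and 1399 CPM, with all 11 tested members of the list called higher. Megakaryocyte markers summed to 801.7 and 842.5 CPM against 372.7 and 428.1 CPM, with all 5 tested called higher, and the lymphoid *Ptprcap* was called lower (-1.54, adjusted p = 4.5e-09). The part of these markers in the changes of the family was not tested.

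The ETO2 and IRF2BP2 knockdowns were set against each other in 1 joint edgeR fit of 13620 genes, since a call in one and not in the other is no test. Only *Bcl2l1* differed among the members, with a log2 FC lower by 1.06 (-1.06, SE 0.22, adjusted p = 0.032) after Eto2 KD than after Irf2bp2 KD, where 0.742% of all genes were called. After Eto2 KD, *Bcl2l1* had been at 22.8 to 26.5 CPM in the 4 KD libraries, overlapping its controls at 25.4 CPM each (log2 FC -0.07, SE 0.08, adjusted p = 0.67). The larger rise of *Bcl2l11* after Irf2bp2 KD was not separable from that after Eto2 KD (difference -0.52, SE 0.48, adjusted p = 0.77), nor was the difference for *Bad* (-0.56, SE 0.29, adjusted p = 0.51). The joint fit shares its spread with the discordant libraries labelled Gfi1b KD. Without replicate 1 of these, a choice made after seeing the data, more genes were called (440), the difference for *Bcl2l11* was -0.50 (SE 0.19, adjusted p = 0.17), and among the members again only *Bcl2l1* was called (-1.05, SE 0.18, adjusted p = 0.0052). The shared intronic sites of *Bcl2l1* printed above are listed as bound by both factors.

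LSD1 depletion was compared with 1 control library and therefore without a test in the main result, and was not tested against the other knockdowns. A member was called when both KD libraries lay 0.5 or more (log2) on the same side of the control, as did 22.9% of 12628 genes (13.1% higher and 9.8% lower). By this rule 3 BH3-only genes were higher and *Bcl2* was lower. From 5.60 CPM in the lone control, *Bbc3* reached 13.5 and 11.7 CPM after KD, log2 differences of 1.26 and 1.06. *Pmaip1*, encoding NOXA, which binds MCL1, measured 16.7 CPM without and 30.5 and 33.0 CPM with the KD (0.87 and 0.98). *Bcl2l11* measured 39.9 and 36.3 CPM against 23.9 CPM (0.74 and 0.60). *Bcl2* moved the other way, with 132.0 and 131.0 CPM against 198.8 CPM (-0.59 and -0.60). *Bcl2l1* just missed the limit, at 23.5 CPM in the control against 16.2 and 17.3 CPM (-0.53 and -0.44), and *Bid* stayed below it (0.35 and 0.35). *Mcl1*, *Bax*, *Bak1* and *Bad* stayed within 0.17 of the control in either direction. All 10 members separated KD from control here, but with 1 control so did 88.8% of all genes. An edgeR fit that lets the control vary like the KD libraries gave log2 FCs of -0.60 for *Bcl2*, 0.67 for *Bcl2l11*, 1.17 for *Bbc3* and 0.93 for *Pmaip1*. Erythroid markers summed to 1210 and 1218 CPM against 1684 CPM in the control, with 4 of 10 tested called lower and none higher. *Nfe2* and *Alas2* had mean log2 differences of 0.28 and 0.07. Megakaryocyte markers summed to 286.7 and 350.3 CPM, on both sides of the control at 341.9 CPM, with *Ppbp* called higher (1.55 CPM against 8.74 and 13.1 CPM) and *Gp1ba* lower (mean log2 difference -0.90) of 5 tested. At low levels, 2 of 2 mast cell markers (summed 0.0204 CPM against 0.314 and 0.503 CPM), the lymphoid *Cd3g* (0.164 CPM against 0.922 and 1.20 CPM) and *Cd79a* and the myeloid *Csf3r* were also called higher, and the lymphoid *Ptprcap* was called lower. The part of these markers in the changes of the family was not tested.

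Induced differentiation raised *Bcl2l11*, *Bid* and *Bcl2*. No member fell past the limits, and the 3 called stand beside 27.2% of 11713 genes called (12.4% higher and 14.8% lower). *Bcl2l11* went from 32.4 and 23.6 CPM in non-induced cells to 205.9 and 232.8 CPM, a log2 FC of 2.96 (SE 0.27, adjusted p = 8.9e-06), 7.81-fold. *Bid* went from 48.4 and 39.5 CPM to 177.2 and 248.0 CPM, a log2 FC of 2.27 (SE 0.27, adjusted p = 8.2e-05), 4.83-fold. *Bcl2* went from 226.7 and 222.5 CPM to 696.8 and 609.2 CPM, a log2 FC of 1.54 (SE 0.24, adjusted p = 5.6e-04), 2.91-fold. Induced and non-induced libraries were far apart for these 3 genes.

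The pore formers did not rise with them. *Bax* was at 52.7 and 37.8 CPM before and 30.6 and 25.7 CPM after induction (log2 FC -0.68, SE 0.28, adjusted p = 0.084), and *Bak1* at 80.3 and 61.4 CPM against 64.9 and 75.8 CPM (-0.01, SE 0.25, adjusted p = 0.98). *Bbc3* was at 17.6 and 9.76 CPM before and 26.9 and 22.7 CPM after (0.85, SE 0.34, adjusted p = 0.080). Neither *Bax* nor *Bbc3* passed the test, although their groups did not overlap, as for 7 of 10 members and 67.3% of all genes. *Mcl1* (0.48, SE 0.23, adjusted p = 0.14), *Bcl2l1* (0.49, SE 0.29, adjusted p = 0.23), *Bad* (0.25, SE 0.39, adjusted p = 0.67) and *Pmaip1* (0.21, SE 0.27, adjusted p = 0.59) did not pass either. In RPKM, the 5 BH3-only transcripts together went from 69.7 and 55.9 to 182.0 and 216.0, the 3 prosurvival ones from 221.7 and 227.6 to 359.6 and 348.5, and *Bax* with *Bak1* from 103.8 and 72.7 to 68.3 and 65.4. Erythroid markers rose with induction, from a summed 2051 and 1955 CPM to 5040 and 4479 CPM, with 9 of 11 tested called, and megakaryocyte markers went from 528.5 and 389.7 CPM to 1322 and 1187 CPM. Of 5 megakaryocyte markers tested 2 were called higher (*Itga2b* and *Gp1ba*), while *Ppbp* fell from 3.29 and 6.64 CPM to 0.0691 and 0.213 CPM. The lymphoid *Ptprcap* was called lower (-2.15, adjusted p = 0.0061). Mast cell markers were at 7.0 and 2.6 CPM before and 15.4 and 0 CPM after induction, and their part was not tested.

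**Figure D4:**
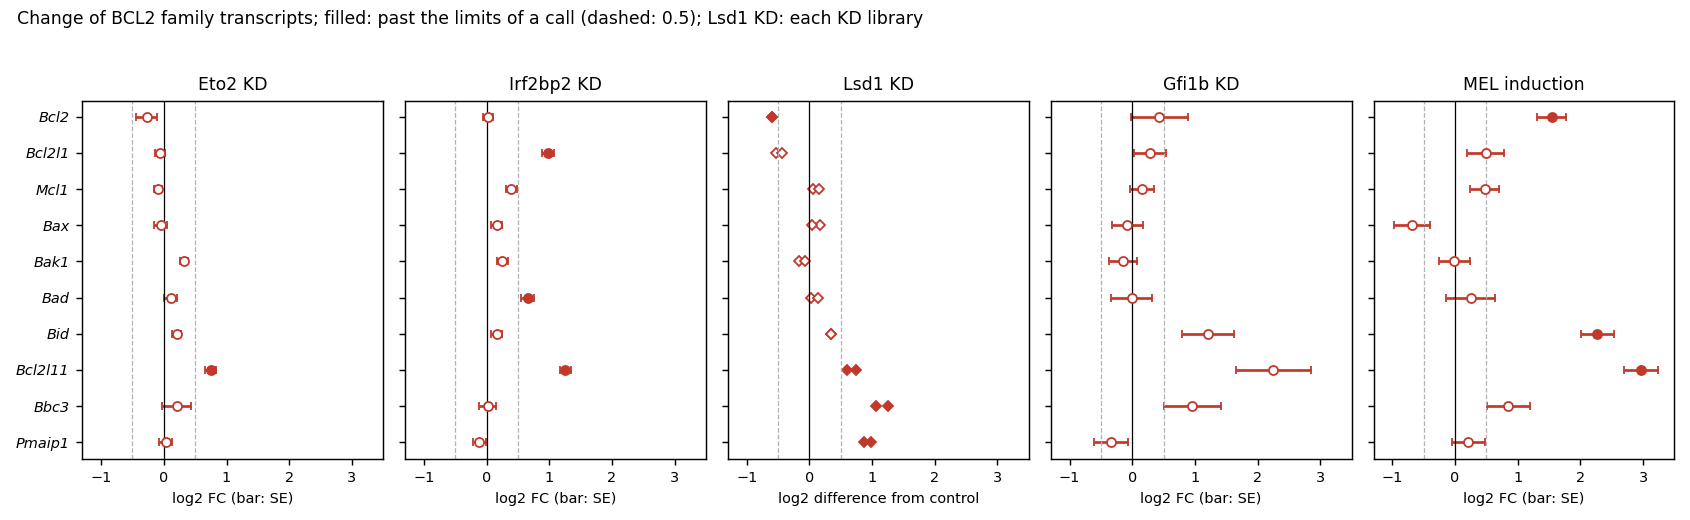
Log2 change of the 10 members in each comparison (x axis), with SE bars from edgeR, or for Lsd1 KD the difference of each KD library from the 1 control. Filled symbols passed the limits of a call and dashed lines mark 0.5. Bcl2l11 is filled in 4 of the 5 panels.

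Knockdown and differentiation were compared in the same joint fit. Against induction, Eto2 KD differed for *Bcl2* (-1.77, SE 0.40, adjusted p = 0.0067), *Bid* (-2.02, SE 0.35, adjusted p = 0.0016), *Bcl2l11* (-2.16, SE 0.48, adjusted p = 0.0059) and *Mcl1* (-0.52, SE 0.15, adjusted p = 0.019), where 24.4% of all genes were called. Irf2bp2 KD differed for *Bcl2* (-1.46, SE 0.43, adjusted p = 0.028), *Bid* (-2.05, SE 0.38, adjusted p = 0.0026), *Bcl2l11* (-1.65, SE 0.52, adjusted p = 0.035) and *Bax* (0.91, SE 0.28, adjusted p = 0.033), where 20.5% were called. The log2 FCs of *Bcl2*, *Bid* and *Bcl2l11* on induction thus exceeded those after either KD. Of these genes, only *Bcl2l11* had been called after Eto2 KD and after Irf2bp2 KD. *Bcl2l1* did not pass this test after Irf2bp2 KD (0.56, SE 0.24, adjusted p = 0.11) or after Eto2 KD (-0.50, SE 0.23, adjusted p = 0.11). Without the library labelled Gfi1b KD replicate 1, the joint fit also called *Bcl2l1* (-0.55, SE 0.19, adjusted p = 0.033) and *Bax* (0.64, SE 0.22, adjusted p = 0.032) between Eto2 KD and induction. The tables differ in depth and delivery as well as in treatment, which cannot be told apart from the conditions in this comparison.

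The libraries labelled Gfi1b KD disagreed with each other about BCL2 itself. *Bcl2* was at 231.9 and 250.3 CPM in the controls, at 486.6 CPM in the library labelled replicate 1 and at 164.3 CPM in the library labelled replicate 2, one far above and the other below both controls. *Bcl2l11* was above the controls (20.5 and 17.4 CPM) in both, at 144.9 and 35.7 CPM, and *Bid* too (controls 41.3 and 40.7 CPM, then 135.2 and 53.8 CPM). With both libraries edgeR called no member and no gene (0% of 11190), 784 genes and 2 members (*Bid* and *Bcl2l11*) had an unadjusted p below 0.05, and DESeq2 called 49 genes but no member. Without the filter on low counts edgeR called *Bid* and *Bcl2l11*, beside 2.41% of all genes. The fitted log2 FC was 2.25 for *Bcl2l11* (SE 0.60, adjusted p = 0.69) and 1.21 for *Bid* (SE 0.41, adjusted p = 0.69). Without replicate 1, the library in which *Gfi1b* was not lower, edgeR called *Bcl2l11* higher (log2 FC 0.91, adjusted p = 0.014) and *Bcl2* lower (-0.56, adjusted p = 0.021), beside 3.48% of all genes. Without replicate 2 it called *Bcl2* (0.99), *Bid* (1.70), *Bcl2l11* (2.91) and *Bbc3* (1.33), all higher, beside 26.7% of all genes. The direction of *Bcl2* is therefore set by which library is kept, and in either case the remaining KD library is assumed to vary like the controls.

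*Bcl2l1* was at 23.9 and 25.5 CPM in the controls and at 26.7 and 33.8 CPM in the libraries labelled KD, and *Bbc3* at 5.96 and 10.6 CPM against 20.9 and 11.0 CPM. Groups did not overlap for 5 of 10 members, against 39.2% of all genes. Beside these values, the library labelled replicate 1 had a summed erythroid marker level of 3740 CPM, against 1398 CPM in replicate 2 and 1341 and 1459 CPM in the controls. Megakaryocyte markers summed to 905.2 CPM there, to 178.7 CPM in replicate 2 and to 227.4 and 292.0 CPM in the controls. Mast cell markers, mainly *Cma1*, summed to 40.9 and 81.3 CPM in the libraries labelled KD against 8.8 and 8.6 CPM in the controls, while they stayed at or under 0.503 CPM in every shRNA library. Lymphoid markers summed to 19.3 CPM in replicate 1 and 49.9 CPM in replicate 2, against 14.9 and 17.6 CPM in the controls. The part of these markers in the values of the family was not tested.

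**Figure D5:**
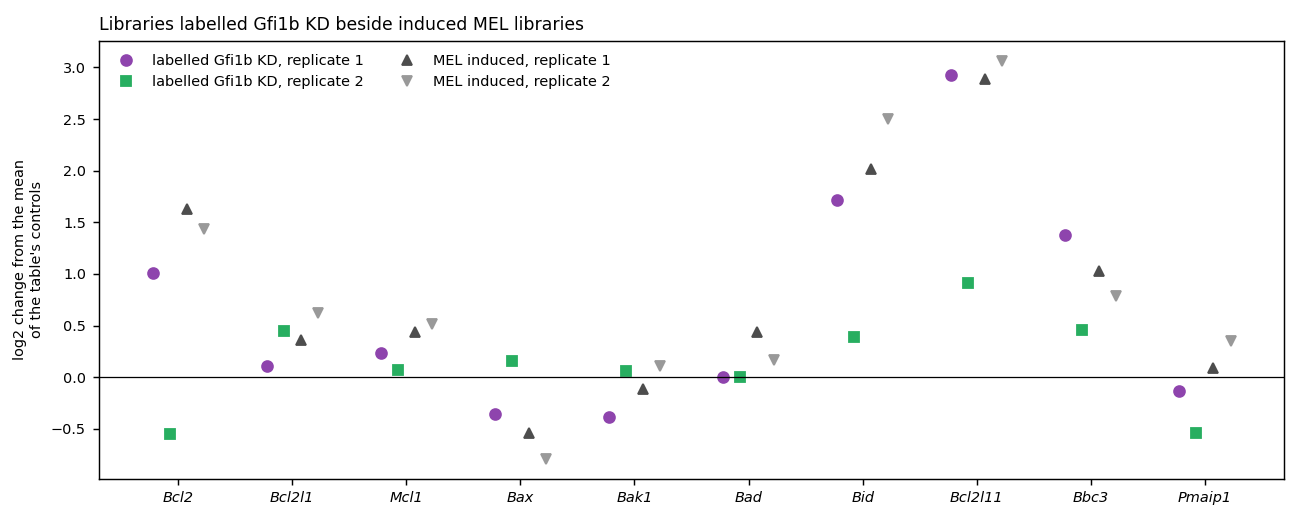
Log2 change of each member (x axis) from the mean of its table's controls (y axis) in the 2 libraries labelled Gfi1b KD and the 2 induced MEL libraries. For Bcl2 the library labelled replicate 1 lies above 0, as the induced libraries do, and replicate 2 lies below 0, while Bid and Bcl2l11 lie above 0 in all 4 libraries.

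Members of the surrounding death pathway were read from lists of 70 gene names, of which 55 to 58 were tested in a comparison. Eto2 KD called 5 of 58 higher and none lower, Irf2bp2 KD 5 of 57 higher and 7 lower, Lsd1 KD 5 of 58 higher and 8 lower, and induction 9 of 57 higher and 9 lower, shares of 8.62%, 21.1%, 22.4% and 31.6% that stand beside the 5.74%, 22.5%, 22.9% and 27.2% of all genes. In the library pair labelled Gfi1b KD none of 55 was called.

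Among further BCL2 relatives, the BH3-only gene *Bik* was called in 3 comparisons. It rose after Eto2 KD (log2 FC 0.60, SE 0.14), after Irf2bp2 KD (1.33, SE 0.16) and on induction (2.34, SE 0.54). *Bmf*, another BH3-only gene, rose on induction (2.37, SE 0.54) and was higher in Lsd1 KD (mean log2 difference 1.74), where the effector-like *Bok* was also higher (2.19). *Bnip3*, a mitophagy receptor, fell after Irf2bp2 KD (-1.23, SE 0.11) and on induction (-1.14, SE 0.27) and was lower in Lsd1 KD (-1.25). Downstream of the mitochondrion, the initiator caspase gene *Casp9* fell after Irf2bp2 KD (-0.95, SE 0.11), while *Dffb*, encoding the nuclease that cuts DNA in dying cells, rose (0.68, SE 0.11). *Cycs*, encoding cytochrome c (-1.02, SE 0.25), and *Aifm1* (-1.53, SE 0.29) fell on induction. None of the 11 apoptosome and caspase genes tested was called after Eto2 KD or in Lsd1 KD.

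The caspase inhibitors *Birc2* (1.01, SE 0.25) and *Xiap* (0.92, SE 0.24) rose on induction, whereas the mitochondrial protease gene *Htra2* fell (-1.07, SE 0.30). In Lsd1 KD the caspase inhibitor *Birc3* was higher (mean log2 difference 0.77) and *Birc6* (-0.74) and *Xiap* (-0.65) were lower. *Sept4*, of which an isoform antagonises XIAP, rose after Eto2 KD (1.08, SE 0.14) and was lower in Lsd1 KD (-1.31). Of the p53 axis, *Phlda3* rose after Eto2 KD (0.51, SE 0.07) and Irf2bp2 KD (1.15, SE 0.10) and was lower in Lsd1 KD (-0.68). *Trp53inp1* rose on induction (2.44, SE 0.30) and was higher in Lsd1 KD (1.01), *Cdkn1a*, the cell cycle inhibitor p21, fell on induction (-1.68, SE 0.42), and *Sesn2* fell after Irf2bp2 KD (-0.94, SE 0.09). None of 7 tested genes of the death receptor branch was called in any comparison.

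Among regulators of the family, *Epor*, the erythropoietin receptor, rose after Eto2 KD (0.60, SE 0.07), after Irf2bp2 KD (0.99, SE 0.09) and, 2.14-fold, on induction. *Foxo3*, a factor known to activate *Bcl2l11* and *Bbc3*, rose after Eto2 KD (0.54, SE 0.07) and on induction (1.09, SE 0.32). *Ddit3*, encoding the stress factor CHOP, fell after Irf2bp2 KD (-1.25, SE 0.09) and on induction (-0.88, SE 0.29) and was higher in Lsd1 KD (mean log2 difference 1.38), and the stress kinase relative *Trib3* fell after Irf2bp2 KD (-1.80, SE 0.10). *Myc* fell on induction (-1.60, SE 0.34).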

How the data were processed

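RNA-Seq libraries were made from 21 MEL cell samples in 11 groups. The authors aligned reads to mm9 with TopHat2 and counted them per RefSeq gene, and the deposited tables hold raw read counts and RPKM values side by side, with columns of the authors' own DESeq2 comparisons (fold changes and p-values) that were not used. The deposited list of ETO2 and IRF2BP2 sites gives the authors' ratio (fold) of ChIP over IgG reads, and 4 of its per-sample columns that match no sample label were not used. The ETO2 ChIP library itself was not analysed here.

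Counts were tested within each table with edgeR 4.0.16 (R 4.3.3; TMM scaling, filterByExpr, quasi-likelihood test, Benjamini-Hochberg adjustment over all genes kept). A gene was called where its adjusted p did not exceed 0.05 and its log2 FC was at least 0.5 in either direction. For the Lsd1 table, with 1 control, both KD libraries had to lie 0.5 or more on the same side of it (prior count 2). Differences between comparisons came from 1 joint fit. CPM values use TMM library sizes, and 3 counts correspond to 0.052 to 0.302 CPM. RPKM was used to compare levels between genes, control levels between tables, and sums of members before and after induction. The procedure was tested on simulated data. DESeq2 1.42.0, other filters and scalings, single hairpins, replicate blocks and leaving out each library were the alternatives. Named genes are the 10 members, the targeted genes and at most the 3 called genes of each pathway list and comparison with the largest absolute log2 FC. The values of *Xiap* in Lsd1 KD and of *Ddit3* on induction fall outside this rule and were chosen after they were seen. The members and all lists were chosen with earlier results of these data known. A gene of the pathway lists is not reported here.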

Additional observations from a re-analysis of the deposited data

Results flagged for a closer look

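Both hairpins in the Eto2 table target the same gene, and 3 members differed between them by a test of the difference (edgeR). *Bcl2* was 0.54 higher on the log2 scale with sh3 than with sh2, *Bbc3* had a difference of -0.68 and *Bax* of -0.28, the last under the fold limit. *Bcl2l1* differed between knockdowns, with a log2 FC after Eto2 KD minus that after Irf2bp2 KD of -1.06. No group is large enough for a gap test of stray values.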

How the results depend on the processing

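Members called in a test kept direction and call in 74 of 74 alternatives. The setting without the fold limit, counted here and below, reuses the main fit. No direction could change and no call could be lost there. Of 490 alternative values of members, 456 kept direction and side of the threshold, 15 passed it newly and 19 changed sign, and of 61 counts 52 stayed within 1.5 times. Without the fold limit, members called became 2 after Eto2 KD, beside 11.4% of all genes, and 5 after Irf2bp2 KD, beside 47.1%. With sh2 alone 3 were called, beside 7.11%. For Gfi1b KD, no filter on low counts called 2 beside 2.41% of all genes (*Bid* 1.20, *Bcl2l11* 2.24), and leaving out a library gave 0 to 4. Same-numbered libraries deviated together with r = 0.25, 0.12 and 0.25 in the Eto2 table, 0.025 for Irf2bp2, 0.0015 for Gfi1b and 0.20 for induction, and with just 2 shared numbers and no label of a shared batch, the numbers were taken as names only. With a replicate block, induction called 5 members beside 33.4% of all genes, adding *Bax* (-0.67, adjusted p = 0.048 by edgeR) and *Bbc3* (0.91, adjusted p = 0.029), and the block changed no other count of members (1, 3 and 0). Members with a site within 5 kb were 6 for any class and 5 for IRF2BP2. The cause of these shifts was not tested.

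Of the 19 sign changes, 5 came without leaving out a single library. These were *Bax* 0.080 with sh2, and *Bbc3* -0.18 and *Pmaip1* -0.10 with sh3. In the comparison labelled Gfi1b KD, *Bad* was 0.0036 at a minimum of 10 counts and 0.0035 with the replicate block. The other 14 came on leaving out a library. After Eto2 KD this gave *Pmaip1* -0.022 to 0.081 and *Bax* -0.11 to 0.017, and after Irf2bp2 KD *Bbc3* -0.15 to 0.20. In the comparison labelled Gfi1b KD it gave *Bad* -0.19 to 0.18, *Bcl2* -0.56 to 0.99, *Bax* -0.37 to 0.15 and *Bak1* -0.40 to 0.053. On induction it gave *Bak1* -0.19 to 0.18, *Pmaip1* -0.0096 to 0.45 and *Bad* -0.089 to 0.70. Without non-induced replicate 1, *Bbc3* was also called (1.33, adjusted p = 0.045 by edgeR), and without Lsd1 KD replicate 2, *Bcl2l1*. Over all genes, 720 calls after Eto2 KD became 1423 without the fold limit, 279 or 360 without a control library and 1145 with sh3 alone. After Irf2bp2 KD 2778 became 5810 without the fold limit. For Gfi1b KD 0 became 411 without a filter, 396 without replicate 1 and 3148 without replicate 2, and on induction 3187 became 1522 to 1772 in 3 leave-one-out fits. Leaving the library labelled Gfi1b KD replicate 1 out of the joint fit, an alternative chosen after seeing the data, gave 1, 6 and 4 members (all genes 440, 4628 and 4325).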

Other observations

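After the control mean of the same table was subtracted from log2 CPM, *Bid* and *Bcl2l11* had r = 0.93 over the 21 libraries, and *Bcl2* and *Bax* r = -0.83. Among 11052 genes, the transcript closest in pattern to *Bcl2l11* was *Tpra1* (r = 0.98), to *Bid* *Asap2* (r = 0.97), to *Bcl2* 9430091E24Rik (r = 0.96) and to *Bax* *Cdkn2a* (r = 0.96). Without the library labelled Gfi1b KD replicate 1, *Bcl2l11* was closest to *Ube2l6* (r = 0.98) and *Bax* to *Qtrt1* (r = 0.97), while *Bid* and *Bcl2* kept the transcripts named. These are descriptions, since the libraries share tables, controls and depth.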
